A study of Homo sapiens with 34 samples.

Results

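Trimethylation of lysine 4 on histone H3 (H3K4me3) was mapped by ChIP-seq in KELLY cells, a human MYCN-amplified neuroblastoma line, made to express a short hairpin RNA to RUNX1T1 when doxycycline is added. The H3K4me3 libraries are 6 of the 34 samples of the series: 3 replicates given DMSO, in which the hairpin was not induced, and 3 given doxycycline for 72 h. They were taken by mark and treatment, and their narrow peaks on chromosomes 1 to 22 and X were compared at the annotated start sites of 19970 protein-coding genes, counting any peak within 1 kb of a start site. Both groups carry the same hairpin cassette, the labels do not name the hairpin, and no doxycycline-treated line without a hairpin was analysed here, so an effect of doxycycline itself and an effect of the knockdown cannot be told apart. The cells are 1 cell line, the labels do not say whether replicates came from separate cultures, and p-values therefore measure the spread between these samples.

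H3K4me3 is laid down around the start sites of genes by SET1 and MLL family methyltransferases, guided in part by unmethylated CpG islands and by transcribing polymerase, and is removed by KDM5 demethylases. Its height and its spread into the gene body are both known to follow promoter activity, while at developmental genes in stem-like cells it can sit together with the Polycomb mark H3K27me3 on so-called bivalent promoters. RUNX1T1 (ETO, MTG8) is a transcriptional corepressor without DNA-binding activity of its own that bridges DNA-binding factors to histone deacetylases and to the H3K4 demethylase LSD1. The comparison asks which promoters gain or lose this mark once the corepressor is depleted.

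Between 24274 and 26514 peaks were listed in the DMSO libraries and between 23801 and 26592 in the doxycycline libraries. The depth at which peaks were called was 71.9 to 81.1 M reads with DMSO and 57.0 to 63.4 M with doxycycline, ranges that do not overlap, so calling depth and treatment cannot be told apart. Replicate 3 had the most redundant reads in both treatments, 22% with DMSO and 25% with doxycycline. Because absolute pileup moves with depth, each promoter was described by whether a peak was called, by the summed width of its peaks, and by the percentile of its highest pileup within the library's own peak list. In bulk chromatin, a mark present in more cells and a mark present at more copies per cell cannot be told apart. Of 15 marker genes of other cell types, 11 had no H3K4me3 peak in any library, among them PTPRC of leukocytes, ALB of liver, CDH1 of epithelia, PECAM1 of endothelium and DCN of fibroblasts.

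The number of marked promoters was nearly equal in both treatments. A peak was called at 14752, 14729 and 14542 genes in DMSO replicates 1, 2 and 3, and at 14773, 14709 and 14450 genes in the doxycycline replicates. The ranges overlapped and the means differed by -30.3 genes (14674.3 ± 115 with DMSO against 14644 ± 171 with doxycycline, SD, n = 3 each), with an exact two-sided permutation p of 0.8, where 20 assignments allow no p below 0.1. In all, 14920 genes had a peak in at least 1 library, 14349 in all 6 and 5050 in none.

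Start sites that switched between no peak in 3 libraries and a peak in 3 libraries were few. With doxycycline, 11 genes gained the mark, 0.0737% of the 14920 genes with any peak, and 15 lost it, 0.101%. All of them lay in the lower part of their lists, and no test was made on them. The gained genes had a median doxycycline percentile of 14.0 and the lost genes a median DMSO percentile of 12.1, against 74.6 in DMSO over the genes marked in all 6 libraries. Leaving out 1 library or 1 replicate number gave between 34 and 83 switching genes in place of 26, since fewer libraries then have to agree: 58, 47 and 83 without replicate numbers 1, 2 and 3, 42 and 55 without DMSO replicates 1 and 3, and 41 and 51 without doxycycline replicates 1 and 3.

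IFNL4 on chromosome 19 (39246314 to 39248856, minus strand), which encodes a type III interferon, had the strongest gained peak. It lay inside the gene body, with widths of 1104, 1120 and 1235 bp and percentiles of 33.3, 32.5 and 24.2 in doxycycline replicates 1, 2 and 3. SP110, an interferon-induced nuclear body protein, gained a peak across its start site (533, 509 and 462 bp, percentiles 25.6, 16.5 and 14.3). TLR3, the endosomal sensor of double-stranded RNA, gained peaks of 739, 498 and 410 bp across its start site. Its percentiles of 26.5, 9.36 and 2.53 differed widely between replicates, and the last is at the very bottom of its list.

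The other gained start sites belong to genes of several functions. CXCL14, a chemokine, gained peaks of 845, 1178 and 710 bp across its start site at percentiles 25.02, 24.4 and 19.86, a tight set of values. ERAP2, an aminopeptidase that trims peptides for MHC class I, gained 762, 642 and 703 bp, and LGALS3BP, a secreted galectin ligand, gained 390, 465 and 445 bp. LDB3, a sarcomeric Z-disc protein, gained 3249, 3292 and 1041 bp, the first 2 values being sums of a pair of peaks. GSTM5, a glutathione transferase, NAT16, BCO1 and the receptor kinase AXL completed the group. The shared AXL peak lay about 7 kb downstream of the canonical start, at an alternative start site, and measured 471 and 234 bp in the libraries where it stood alone.

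Among the lost start sites, CRYBB2, which encodes a lens crystallin, had the most significant peak by its weakest library, with widths of 473, 336 and 409 bp and percentiles of 22.6, 22.6 and 22.3 in DMSO replicates 1, 2 and 3. That peak sat about 7 kb upstream of its canonical start, at an alternative start site. TMEM150B (288, 477 and 259 bp), MAP1LC3C, an autophagy protein, SLC46A2 (612, 594 and 258 bp), EIF2S3B, ASPG, the ephrin receptor EPHB4 (368, 584 and 502 bp), NAP1L2 and SERPINB5 (389, 289 and 288 bp) followed, and GPR108 and TRIP10 shared 1 lost peak. The remaining lost genes were GRIN3B, GRM3, PCDHA1 and PTGS2. Of the 11 gained genes 6 also had H3K27me3 peaks in all 6 H3K27me3 libraries, as had 8 of the 15 lost genes, against 14.3% of the 14349 genes marked in all 6 H3K4me3 libraries. H3K27ac, the acetyl mark of active promoters, had no peak in any of its 6 libraries at 7 of the 11 gained and 14 of the 15 lost genes, against 7.63% of the tested genes.

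The height of the mark relative to other peaks moved at 25 promoters without the replicate block, 21 of them upward, and at 414 with it, 186 of them upward. For each of the 14349 genes, the within-list percentile of the highest pileup was turned into a normal score, so that a change of 1 equals 1 standard deviation of the list, and tested with limma over 3 against 3 libraries. With Benjamini-Hochberg adjustment over all 14349 genes, 21 genes ranked higher with doxycycline (0.146%) and 4 lower (0.0279%), which came from 19 and 3 distinct sets of peaks. The median change over all tested genes was -0.04. Of genes with H3K27me3 in all 6, in 1 to 5 and in none of its libraries, 42.6%, 43.2% and 35.0% had a change above 0. Replicate numbers pair the libraries, and with the replicate number as a block 186 genes ranked higher (1.3%) and 228 lower (1.59%), with each of the 25 genes still called. Leaving out 1 library changed the count to 11 (DMSO 1), 9 (DMSO 2), 3 (DMSO 3), 11 (doxycycline 1), 14 (doxycycline 2) and 92 (doxycycline 3), and without replicate number 3 it was 149.

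**Figure D1:**
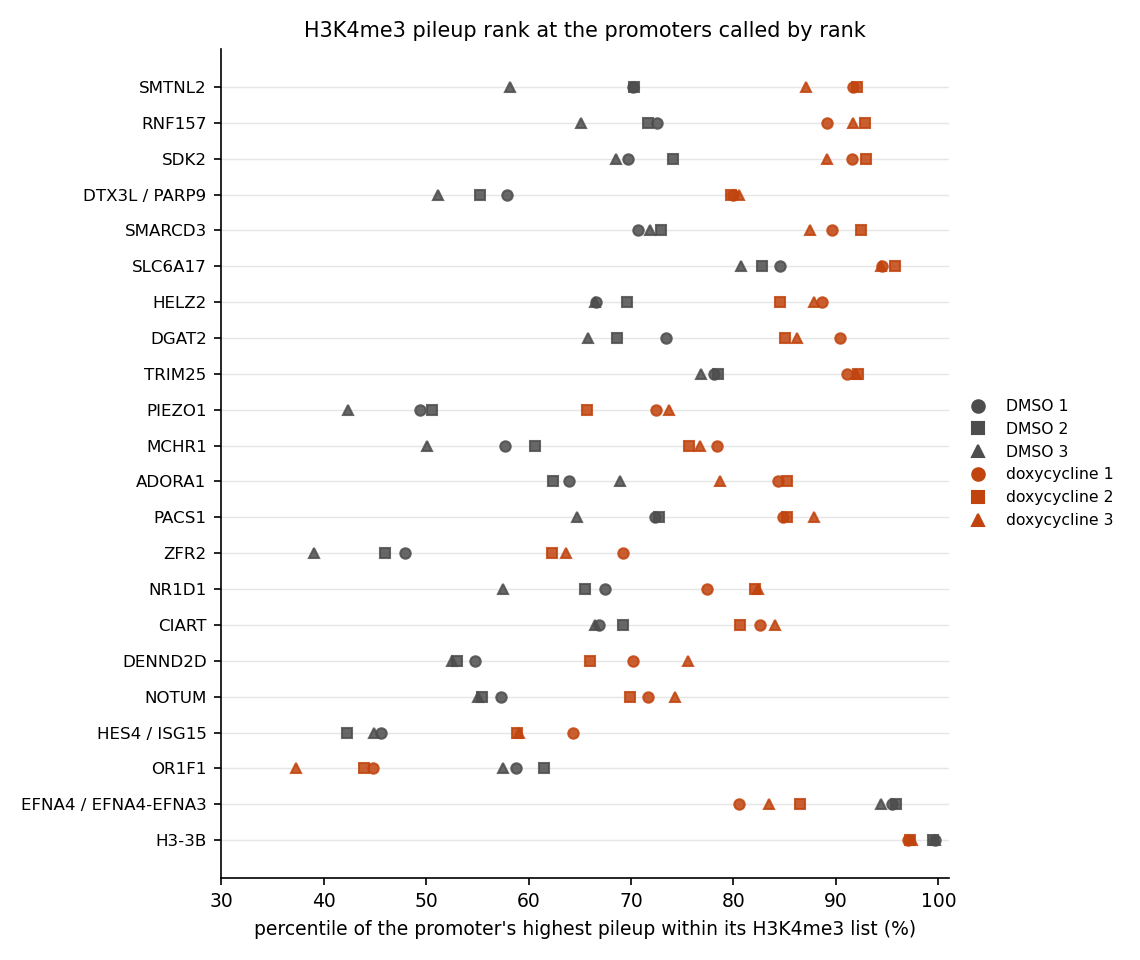
Percentile of the highest H3K4me3 pileup within each library's peak list (horizontal axis, %) at the promoters called by rank; grey symbols are the 3 DMSO libraries, orange symbols the 3 doxycycline libraries, and genes named together share a peak. The rows were chosen by their rank change, and in each the grey and orange symbols do not overlap. SMTNL2 moved from between 58.2 and 70.3 to between 87.1 and 92.0.

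The largest rise among genes called without the block was at SMTNL2 (smoothelin-like 2, chromosome 17, 4583999 to 4608319, plus strand). Its percentile was 70.2, 70.3 and 58.2 in DMSO replicates 1, 2 and 3 and 91.7, 92.0 and 87.1 in the doxycycline replicates, a rise of 0.88 ± 0.12 (SE) on the normal-score scale with an adjusted p of 0.0044 in limma. The replicate 3 libraries were the lowest of both groups, and the groups did not overlap. RNF157, a ubiquitin ligase studied in neurons (chromosome 17, 76142465 to 76240493, minus strand), went from 72.6, 71.7 and 65.1 to 89.2, 92.8 and 91.7 (0.84 ± 0.11, limma adjusted p = 0.0044). SDK2, an immunoglobulin-family adhesion molecule of synapses on the same chromosome (73334384 to 73644445, minus strand), went from 69.7, 74.1 and 68.5 to 91.6, 92.9 and 89.2 (0.81 ± 0.11, limma adjusted p = 0.0044). These promoters moved from moderate percentiles into the upper end of the list in every doxycycline library. SMTNL2, RNF157 and SDK2, as well as HELZ2, were called in 17 of 18 alternative analyses, the exception being the one without DMSO replicate 3 (limma adjusted p = 0.068), while called genes other than these and DTX3L with PARP9 were called in 9 (OR1F1, ISG15) to 16 (PIEZO1, MCHR1).

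Of the 21 genes that ranked higher, 5 (DTX3L, PARP9, HELZ2, TRIM25 and ISG15) are known to be induced by interferon and rank by 4 distinct peaks. DTX3L and PARP9 form a ubiquitin ligase and ADP-ribosyltransferase complex of interferon and DNA damage responses and are transcribed away from each other at 1 shared promoter (chromosome 3, DTX3L 122564338 to 122575203 plus strand, PARP9 122527924 to 122564577 minus strand). Their common peak stood at percentiles 57.9, 55.2 and 51.1 with DMSO and 79.9, 79.8 and 80.5 with doxycycline. This was the most reproducible change by rank (0.72 ± 0.08, limma adjusted p = 0.00069), and it was called in all 18 alternative analyses of rank. Its pileup, in reads as the peak caller scaled them, was 310, 251 and 194 with DMSO and 422, 371 and 248 with doxycycline. The shared promoter had no H3K27ac peak in any library of either treatment. It had H3K27me3 peaks in 3 DMSO and 3 doxycycline libraries.

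HELZ2, an interferon-induced helicase and nuclear receptor coactivator (chromosome 20, 63558086 to 63574239, minus strand), rose from percentiles 66.5, 69.6 and 66.5 to 88.7, 84.5 and 87.9 (0.68 ± 0.09, limma adjusted p = 0.0059). TRIM25, the ubiquitin ligase that activates the RNA sensor RIG-I (chromosome 17, 56836387 to 56914080, minus strand), rose from 78.1, 78.5 and 76.8 to 91.1, 92.1 and 92.0 (0.62 ± 0.11, limma adjusted p = 0.03). ISG15, a ubiquitin-like interferon effector (chromosome 1, 1001138 to 1014540, plus strand), rose from 45.6, 42.3 and 44.9 to 64.3, 58.8 and 59.1 (0.42 ± 0.08, limma adjusted p = 0.041). The rank of ISG15 is not that of the peak over its own start but of a peak upstream that it shares with HES4, a target of Notch signalling which has its start next to an upstream alternative start of ISG15. In all these genes the lowest doxycycline value lay above the highest DMSO value. The same held for each of the 21 genes called higher, so it adds no support beyond the call.

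A list of 35 interferon-stimulated genes, drawn up after these calls had been seen and therefore no independent evidence, had 27 members with a peak in any library and 25 that could be tested. Of these, 5 ranked higher, beside 0.146% of all tested genes, and none ranked lower. A change above 0 was seen in 18 of 25, beside 35.0% to 43.2% of tested genes by H3K27me3 class. The median was 0.08 against -0.04 over all tested genes. SP110 of the same list is among the gained genes, and OAS1 had a peak in 1 DMSO library and in 3 doxycycline libraries. Among all genes, 18 went from 1 DMSO to 3 doxycycline libraries and 20 from 3 to 1. With the replicate block 9 were called higher, beside 1.3% of all tested genes, the further ones being MX1, PARP14, USP18 and IFIH1. MX1, an antiviral GTPase, had percentiles averaging 14.7 with DMSO and 36.2 with doxycycline (0.73 ± 0.20, limma adjusted p = 0.31, and 0.00054 with the replicate block). Other central members gave changes on both sides of 0: IFIT1 0.08 (limma adjusted p = 0.91), BST2 -0.19 (0.74) and IRF9 -0.27 (0.79).

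**Figure D2:**
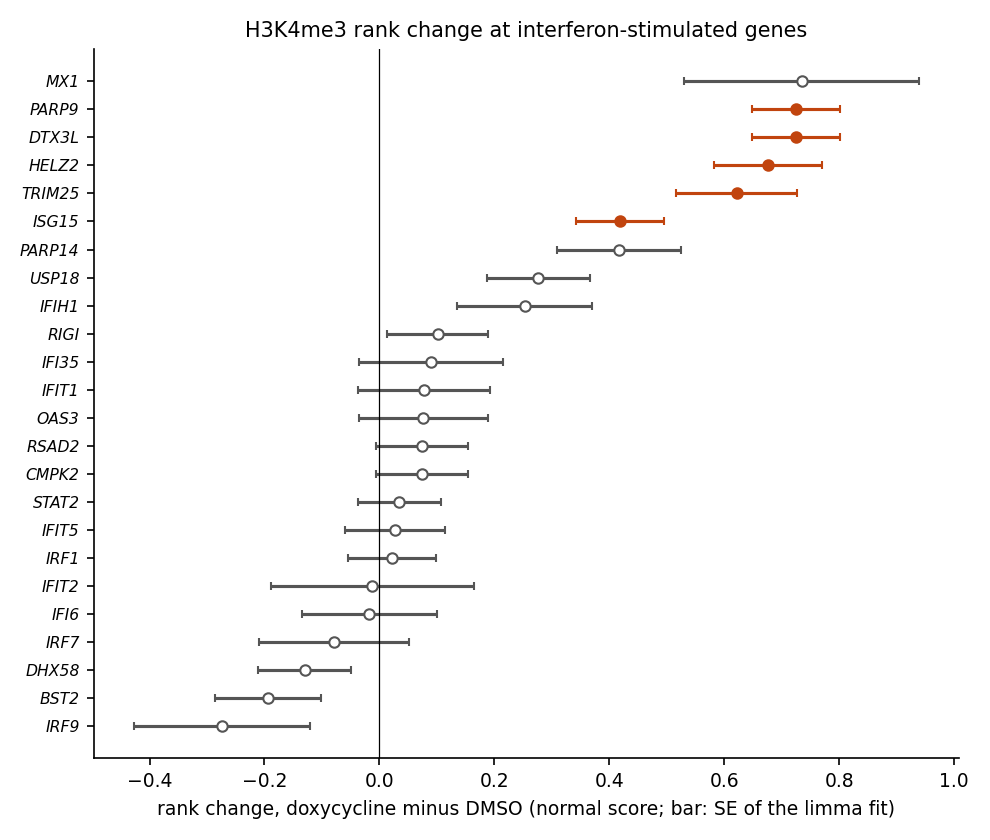
Rank change of H3K4me3 (horizontal axis, normal score, doxycycline minus DMSO; bars are the SE of the limma fit over 3 against 3 libraries) at 24 of the 25 interferon-stimulated genes with a peak in all 6 libraries. Filled orange points passed the adjusted threshold: PARP9, DTX3L, HELZ2, TRIM25 and ISG15; MX1 had the largest change, 0.73, with a wide error, and IRF9 the lowest, -0.27.

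Promoter sequences of 4 genes are shown, 3 because the peak over their start ranked higher (DTX3L), widened (ISG15) or appeared (TLR3) and they carry the core of the interferon-stimulated response element, and CIART for its E-boxes. The core was searched as 2 copies of GAAA with 2 bases of any kind between them and the E-box as CACGTG, both on either strand, in the 300 bases from 250 before to 50 after the RefSeq start (GRCh38.p14), and the matches are in capitals. ISG15 (chr1:1013247-1013546, plus strand) holds 2 overlapping matches that begin 113 bases before the start, DTX3L (chr3:122564088-122564387, plus strand) 1 that begins 6 bases before it, and TLR3 (chr4:186068906-186069205, plus strand) 1 on the opposite strand that begins 4 bases before it. CIART (chr1:150282304-150282603, plus strand) holds 3 E-boxes.
ISG15: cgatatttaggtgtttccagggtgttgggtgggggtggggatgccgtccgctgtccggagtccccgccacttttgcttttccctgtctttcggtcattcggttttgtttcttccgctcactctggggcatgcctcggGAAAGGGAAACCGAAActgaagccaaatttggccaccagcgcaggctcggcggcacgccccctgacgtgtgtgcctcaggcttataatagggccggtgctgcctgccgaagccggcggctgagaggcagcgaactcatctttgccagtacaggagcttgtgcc
DTX3L: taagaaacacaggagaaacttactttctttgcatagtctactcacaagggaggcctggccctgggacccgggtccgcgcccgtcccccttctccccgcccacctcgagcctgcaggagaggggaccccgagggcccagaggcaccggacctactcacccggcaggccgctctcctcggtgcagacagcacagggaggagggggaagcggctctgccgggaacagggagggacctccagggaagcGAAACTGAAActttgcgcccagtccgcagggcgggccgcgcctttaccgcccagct
TLR3: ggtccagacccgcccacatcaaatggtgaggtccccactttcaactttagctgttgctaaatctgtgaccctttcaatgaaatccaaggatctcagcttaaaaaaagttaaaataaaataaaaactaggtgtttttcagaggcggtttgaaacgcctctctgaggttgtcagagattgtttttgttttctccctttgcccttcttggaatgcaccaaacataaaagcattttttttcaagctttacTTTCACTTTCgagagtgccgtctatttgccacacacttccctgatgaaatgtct
CIART: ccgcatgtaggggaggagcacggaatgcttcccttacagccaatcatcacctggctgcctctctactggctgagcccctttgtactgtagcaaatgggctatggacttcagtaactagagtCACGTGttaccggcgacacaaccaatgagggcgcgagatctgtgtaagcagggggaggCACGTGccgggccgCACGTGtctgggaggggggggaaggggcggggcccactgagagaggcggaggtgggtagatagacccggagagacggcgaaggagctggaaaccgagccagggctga

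Of the 21 genes that ranked higher 16 had a promoter in the RefSeq table, and 2 of them (DTX3L and ISG15, 12.5%) held the interferon core, against 2.5% of 11374 tested genes with a promoter there and 3.19% of all 35116 promoters. ISG15 counts here through the HES4 peak, which does not lie over the ISG15 promoter that was searched, and HES4 has no match, so that 1 gene, DTX3L, holds the core under the peak that ranked higher. Among 10 gained genes with a sequence 2 held it, LGALS3BP and TLR3. The match is a description of these letters in this window. CACGTG was in the promoters of CIART and TRIM25 among the same 16 genes, and in 10.1% of tested promoters and 8.88% of all promoters.

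Genes of the circadian clock were also among the risers. NR1D1, the repressor REV-ERB alpha of the clock, went from percentiles 67.5, 65.5 and 57.5 to 77.4, 82.1 and 82.4 (0.52 ± 0.09, limma adjusted p = 0.033). CIART, a repressor of the CLOCK-BMAL1 factor that binds E-boxes, went from 66.9, 69.2 and 66.5 to 82.6, 80.7 and 84.0 (0.48 ± 0.08, limma adjusted p = 0.033), and its 3 E-boxes are among the sequences shown. The NR1D1 promoter had no CACGTG match in the same window. Both promoters, like every gene called higher, were higher in each doxycycline library than in any DMSO library. In a list of 17 clock genes, drawn up after the calls were seen and therefore no independent evidence, 16 could be tested. NR1D1 and CIART ranked higher, beside 0.146% of all tested genes, and none ranked lower. A change above 0 was seen in 11, beside 35.0% to 43.2% of tested genes by H3K27me3 class. The largest decreases of the list, at CRY2 (-0.29, limma adjusted p = 0.73) and NR1D2 (-0.26, 0.78), did not pass. The median was 0.09 against -0.04 over all tested genes. The replicate block added PER3 (0.29 ± 0.08, limma adjusted p = 0.32 without the block and 0.012 with it) and HLF (0.34 ± 0.10, 0.31 and 0.025). With the block 1.3% of all tested genes ranked higher.

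The other risers encode receptors, transporters and enzymes. SMARCD3, a SWI/SNF remodelling subunit, went from 70.7, 72.9 and 71.8 to 89.6, 92.5 and 87.5 (0.71 ± 0.11, limma adjusted p = 0.011), and SLC6A17, a vesicular amino acid transporter of neurons, from 84.5, 82.8 and 80.8 to 94.5, 95.8 and 94.4 (0.69 ± 0.12, 0.033). PIEZO1, a mechanically gated cation channel, went from 49.4, 50.6 and 42.4 to 72.5, 65.7 and 73.7 (0.61 ± 0.08, limma adjusted p = 0.0059). DGAT2, a triglyceride synthesis enzyme, went from 73.4, 68.6 and 65.8 to 90.4, 85.0 and 86.2 (0.64 ± 0.10, limma adjusted p = 0.024). The receptors MCHR1 (0.58) and ADORA1 (0.56), the sorting protein PACS1 (0.56), ZFR2 (0.53), DENND2D (0.46) and the WNT deacylase NOTUM (0.43) completed the group.

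Without the block 4 genes ranked lower, and with it 228. H3-3B, which encodes the replication-independent histone H3.3 (chromosome 17, 75776434 to 75785893, minus strand), lay at percentiles 99.69, 99.52 and 99.66 with DMSO and 97.01, 97.27 and 97.41 with doxycycline (-0.76 ± 0.13, limma adjusted p = 0.033). It stayed among the tallest peaks of every list, and its centred log2 pileup gave -0.19 with an adjusted p of 0.56, so its call depends on the rank scale. EFNA4, a ligand of Eph receptors, shares its peak with the readthrough gene EFNA4-EFNA3 (chromosome 1, 155063737 to 155069553, plus strand) and went from 95.5, 95.9 and 94.4 to 80.5, 86.5 and 83.5 (-0.70 ± 0.13, limma adjusted p = 0.035). OR1F1, an olfactory receptor, went from 58.7, 61.5 and 57.5 to 44.8, 43.9 and 37.3 (-0.44 ± 0.08, limma adjusted p = 0.045).

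The next non-overlapping decreases did not pass: AJUBA, a LIM-domain adaptor, gave -0.38 (limma adjusted p = 0.058), IQUB -0.53 (0.072), ATP13A1 -0.59 (0.088), MPP7 -0.35 (0.11), NID2 -0.40 (0.12), C6orf89 -0.36 (0.14 in limma) and JPT1 -0.61 (0.14 in limma). With the replicate block each of these passed, with adjusted p-values from 0.00061 to 0.012. AJUBA was at percentiles 61.7, 63.5 and 66.9 with DMSO and 50.7, 47.3 and 50.1 with doxycycline.

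Width was called at more promoters than rank without the replicate block (67 against 25), and at fewer with it (76 against 414). The summed width of the peaks at a gene was taken as log2, centred on the library median, and tested in the same way. With doxycycline 51 promoters were wider (0.355% of 14349) and 16 narrower (0.112%), with a median change over all tested genes of -0.002, and with the replicate block 54 were wider (0.376%) and 22 narrower (0.153%), 42 and 10 of them shared with the unblocked calls. Leaving out 1 library gave 27 calls (DMSO 1), 52 (DMSO 2), 45 (DMSO 3), 31 (doxycycline 1), 26 (doxycycline 2) and 114 (doxycycline 3). Without replicate numbers 1, 2 and 3 the counts were 0, 19 and 134, and at the count of 0 in limma 811 genes had an unadjusted p below 0.05. Only HES4, ISG15, PIEZO1 and SDK2 were called both by rank and by width, 16% of the rank calls and 5.97% of the width calls.

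**Figure D3:**
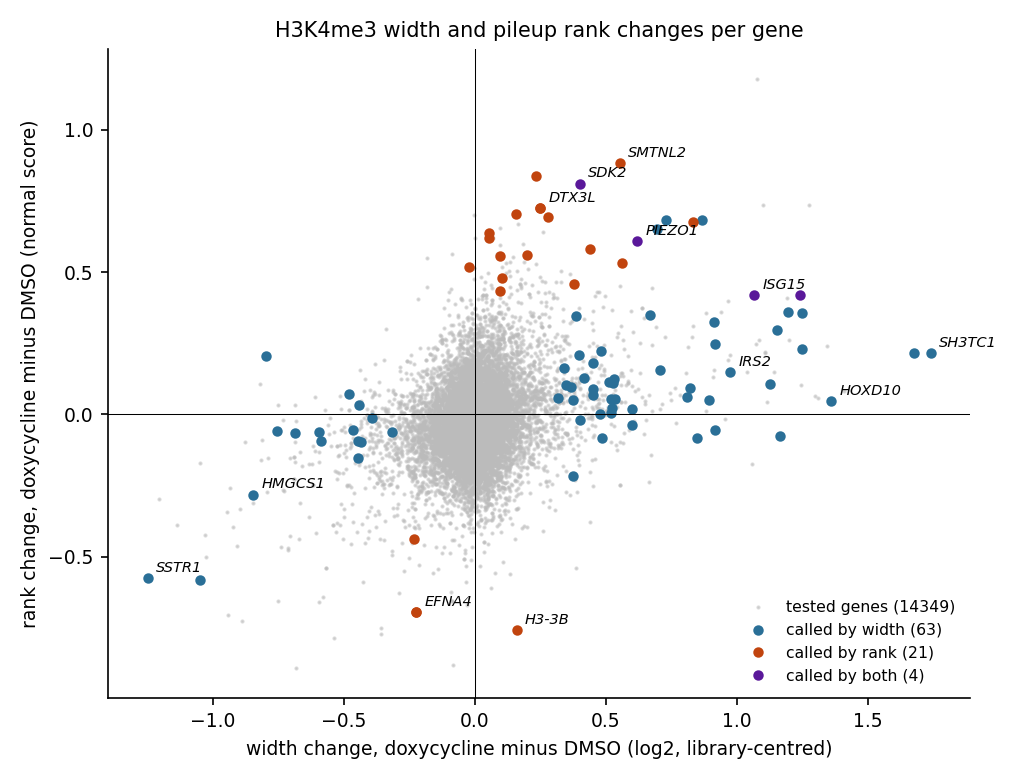
Change in H3K4me3 width (horizontal axis, log2, library-centred) against change in pileup rank (vertical axis, normal score), doxycycline minus DMSO, for each of 14349 genes; blue points were called by width (63), orange by rank (21) and purple by both (4). Most genes called by width lie close to 0 on the rank axis, such as HOXD10 with a width change of 1.36, and most genes called by rank lie close to 0 on the width axis.

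Whether a promoter was wider because the mark reached bases that no DMSO peak covered, or because neighbouring peaks joined into 1, was read from the bases covered by any peak within the union of a gene's peaks over the 6 libraries. Of the 51 wider promoters 19 had such further peaks in at least 1 library. The median fold in width was 1.52 and the median fold in covered bases 1.36, from 1.09 to 3.23, and for 49 of the 51 the covered bases did not overlap between treatments. For the 16 narrower promoters the medians were 0.691 and 0.721, and covered bases did not overlap in any of them. The widths themselves did not overlap at any of the 51 or the 16 genes. These are descriptions of genes chosen by width, with no test, and the share of all tested genes without overlap is not given here.

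New ground was covered at SH3TC1 on chromosome 4 (8182072 to 8241803, plus strand), the largest change in width. Its peaks measured 1145, 1501 and 899 bp in DMSO replicates 1, 2 and 3 and 4250, 4078 and 3126 bp in the doxycycline replicates, 3.34-fold (log2 1.74 ± 0.15, limma adjusted p = 0.0055), and no further peak lay in the region. ASS1, argininosuccinate synthase of the urea cycle (chromosome 9, 130444961 to 130501274, plus strand), went from 2754, 2666 and 2423 bp to 6816, 6933 and 4736 bp (2.37-fold, 1.25 ± 0.10, limma adjusted p = 0.0042). Its covered bases rose 2.27-fold, and its peaks ended on average 1957 bp downstream of the start with DMSO and 5652 bp downstream with doxycycline. In both genes the added mark lay in the gene body. SH3TC1 was called in 18 and ASS1 in 17 of 19 alternative analyses of width, of which the one without replicate number 1 called no gene at all.

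Peaks joined at other promoters of the same list. HOXD10 (chromosome 2, 176108790 to 176119937, plus strand), a posterior homeobox gene, went from 1887, 2260 and 1739 bp to 5060, 4884 and 4782 bp (2.57-fold, 1.36 ± 0.08, limma adjusted p = 0.0017). This peak lay at an alternative start upstream, from -10183 to -8297 bp of the canonical HOXD10 start in DMSO replicate 1, and no library had a peak at the canonical start itself. The DMSO libraries held a second peak of 2104, 2176 and 2107 bp next to it, at the start of HOXD11, so that the covered bases rose only 1.2-fold and HOXD11 itself, which counts both peaks, gave a width change of 0.29 ± 0.06 (limma adjusted p = 0.11). IRS2, the insulin receptor substrate 2, went from 4714, 4876 and 4598 bp to 9149, 9114 and 9014 bp (1.96-fold, 0.97 ± 0.06, limma adjusted p = 0.0017), while its covered bases rose 1.09-fold. CD248, endosialin (chromosome 11, 66314494 to 66317044, minus strand), went from 2509, 2698 and 1857 bp to 5487, 5379 and 4820 bp (2.29-fold, 1.197 ± 0.096, limma adjusted p = 0.0048) with covered bases at 1.16-fold and overlapping between treatments. At these genes the gap between neighbouring peaks was closed in each doxycycline library and open in each DMSO library.

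**Figure D4:**
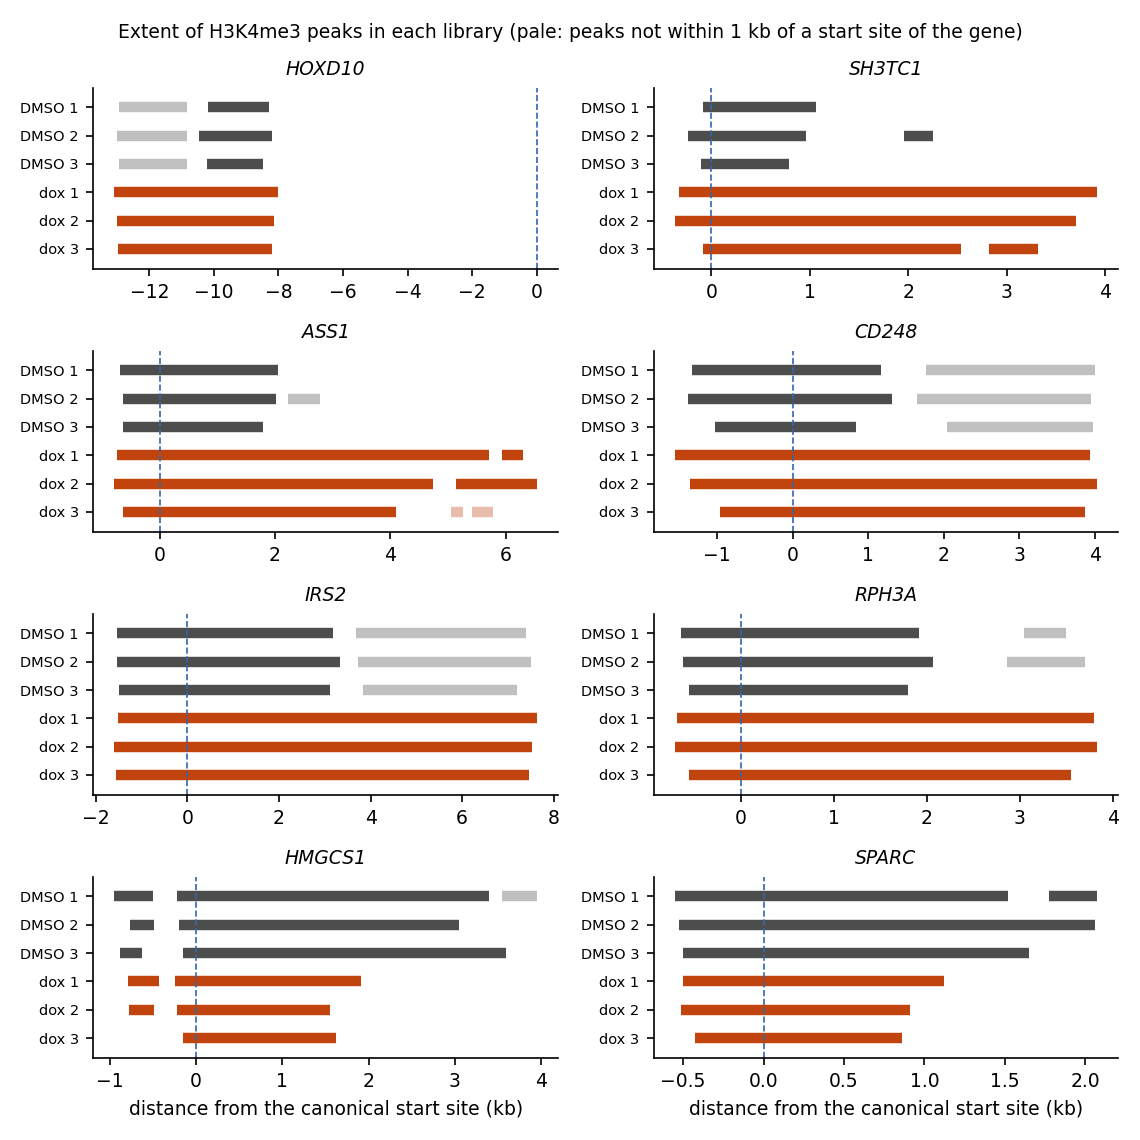
Extent of the H3K4me3 peaks at 8 promoters in each of the 3 DMSO (grey) and 3 doxycycline (orange) libraries, in kb from the canonical start site (dashed line) in the direction of transcription; pale bars are peaks that no start site of that gene reaches within 1 kb. At SH3TC1 and ASS1 the orange bars reach bases with no grey bar, at IRS2, CD248 and HOXD10 they join a dark and a pale grey bar, and at HMGCS1 and SPARC they end nearer to the start.

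Interferon and Notch genes were wider at the ISG15 and HES4 locus. The peak over the start of ISG15 measured 625, 932 and 598 bp with DMSO and 1695, 1691 and 1245 bp with doxycycline, the smallest doxycycline value above the largest DMSO value. The sum over all its start sites, which includes the HES4 peak, went from 2285, 2839 and 2070 bp to 5323, 4937 and 4400 bp (2.09-fold, 1.07 ± 0.09, limma adjusted p = 0.0052). HES4 went from 1495, 1794 and 1118 bp to 3628, 3246 and 3155 bp (2.36-fold, 1.24 ± 0.13, limma adjusted p = 0.012). The 2 genes are therefore not independent of each other. Covered bases rose 1.88-fold at ISG15 and 1.78-fold at HES4, where further DMSO peaks lay in the region.

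Several wider promoters belong to developmental regulators, named here after their values were seen. PAX2, a paired-box factor of kidney and nervous system (chromosome 10, 100735396 to 100829944, plus strand), went from 830, 1022 and 833 bp to 2327, 2462 and 1556 bp (2.38-fold, 1.25 ± 0.14, limma adjusted p = 0.015). A gene model without a symbol that overlaps the PAX6 locus on chromosome 11, ENSG00000285283, went from 761, 937 and 772 bp to 3219, 2555 and 2062 bp (3.2-fold, 1.68 ± 0.13, limma adjusted p = 0.0041), and PAX6 itself gave 1.11 ± 0.30 (limma adjusted p = 0.23). Covered bases at ENSG00000285283 rose 1.99-fold, and each DMSO library held a further peak in the region. OSR2, a zinc-finger factor of limb and palate, went from 1370, 1210 and 845 bp to 2657, 2600 and 2152 bp (2.24-fold, 1.17 ± 0.13, limma adjusted p = 0.016). LHX1 (0.81), MSX1 (0.71), EN2 (0.67), MNX1 (0.40) and FEZF2 (0.37, limma adjusted p = 0.046, and 0.053 with the replicate block), all homeobox or zinc-finger regulators of development, were also wider. FST, which encodes the activin antagonist follistatin, gave 0.85 ± 0.11 (limma adjusted p = 0.027), and SHISA2 0.89 ± 0.09 (0.0098).

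Other wider promoters, also named after their values were seen, belong to genes of various functions. RPH3A, the synaptic vesicle protein rabphilin, had the lowest adjusted p of all widths (0.0013 in limma), with 2553, 2685 and 2351 bp against 4484, 4537 and 4106 bp. The regulators of G-protein signalling RGS16 (1.89-fold) and RGS8 (1.89-fold, through a peak at an alternative start downstream), the platelet-derived growth factor gene PDGFA (2.23-fold), the axon guidance receptor PLXNA4 (1.62-fold) and the intermediate filament gene PRPH (1.3-fold, limma adjusted p = 0.047, and 0.069 with the replicate block) were wider as well. Covered bases rose 1.36-fold at RGS16 and 1.48-fold at RPH3A, where further DMSO peaks lay in the region.

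BCL2, the apoptosis inhibitor, went from 5020, 4610 and 4597 bp to 7510, 6661 and 6979 bp (1.52-fold, 0.60 ± 0.07, limma adjusted p = 0.018). Its covered bases rose 1.21-fold, and each DMSO library held further peaks just downstream. EGR1, an immediate early zinc-finger factor, went from 3193, 3619 and 3069 bp to 4585, 4729 and 4552 bp (1.44-fold, 0.52 ± 0.06, limma adjusted p = 0.021). Both sets of values were separated without overlap, as at each of the 51 wider genes. SLC25A48, a mitochondrial carrier, was called wider (1.13 ± 0.14, limma adjusted p = 0.026) only through an alternative start far upstream of its canonical one, whose added peaks of 845, 1178 and 710 bp are those of CXCL14, and with canonical starts alone the change was -0.13.

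The narrower promoters are given by size and by gene. SSTR1, a somatostatin receptor (chromosome 14, 38207904 to 38213067, plus strand), went from 1510, 1757 and 1827 bp to 763, 617 and 719 bp (0.42-fold, -1.25 ± 0.14, limma adjusted p = 0.015). A separate doxycycline peak of 667, 802 and 731 bp remained farther downstream, and the covered bases were 0.844-fold of those with DMSO. HMGCS1, the HMG-CoA synthase of cholesterol synthesis (chromosome 5, 43287470 to 43313512, minus strand), went from 4059, 3535 and 3998 bp to 2520, 2071 and 1776 bp (0.556-fold, -0.85 ± 0.11, limma adjusted p = 0.024), and its covered bases were 0.547-fold. SPARC, a matrix glycoprotein (chromosome 5, 151661096 to 151686975, minus strand), went from 2370, 2583 and 2156 bp to 1625, 1425 and 1288 bp (0.622-fold, -0.69 ± 0.06, limma adjusted p = 0.0088).

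CX3CL1, the membrane-bound chemokine fractalkine (chromosome 16, 57372477 to 57385044, plus strand), went from 2646, 2694 and 2263 bp to 1595, 1457 and 1350 bp (0.592-fold, -0.76 ± 0.05, limma adjusted p = 0.004). Its start-site peak alone measured 1733, 1633 and 1774 bp against 1595, 1457 and 1350 bp (-0.19 with canonical starts alone, limma adjusted p = 0.36), and a separate downstream peak of 913, 1061 and 489 bp in the DMSO libraries was absent from the doxycycline lists. P2RX5, an ATP-gated channel, went from 4670, 5005 and 3431 bp to 2445, 2608 and 2241 bp (0.574-fold, -0.80 ± 0.10, limma adjusted p = 0.024), and with canonical starts alone its change was 0.038. ZNF556 (0.483-fold, limma adjusted p = 0.046, and 0.062 with the replicate block), COL8A2 (0.662-fold), ATF7IP (0.665-fold), the synaptic adhesion gene NRXN3 (0.716-fold) and utrophin, UTRN (0.724-fold), completed the 10 largest decreases. At COL8A2, ATF7IP, NRXN3 and UTRN the change lay mostly at alternative starts far downstream, and with canonical starts alone the changes were -0.06, -0.16, -0.27 and -0.40, none of which passed (limma adjusted p = 0.85, 0.32, 0.7 and 0.47). The COL8A2 peak over its canonical start measured 917, 985 and 803 bp with DMSO and 849, 941 and 753 bp with doxycycline, values that overlap.

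In a list of 18 genes of cholesterol synthesis and uptake, drawn up after HMGCS1 had been seen and therefore no independent evidence, only HMGCS1 passed the width test. The median width change of the list was -0.08 against -0.002 over all tested genes, with 3 of 18 above 0. Of all tested genes, 0.112% were called narrower. FDPS, farnesyl diphosphate synthase, measured 7786, 8208 and 7543 bp with DMSO and 7777, 4090 and 3420 bp with doxycycline (-0.69 ± 0.24, limma adjusted p = 0.33). Its first doxycycline library kept the DMSO width and the other two did not. SQLE, squalene epoxidase, gave a width change of -0.02 that did not pass.

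The edge that moved was mostly the downstream one. Among the 51 wider promoters, 45 had a single peak over the canonical start in all 6 libraries. In 36 of these 45 (80%) the downstream edge lay farther out in each doxycycline library than in any DMSO library, and in 17 (37.8%) the upstream edge did. Over the 12976 tested genes with such a peak the shares were 4.96% and 3.95%. The median extension was 657 bp downstream and 70.7 bp upstream at the wider genes, against -20.7 and -19.7 bp over all. Among 13 narrower genes of this kind the downstream edge was nearer without overlap in 7 (53.8%, against 8.75% of all) and the upstream edge in 2. As width chose these genes, these shares are a description. The edge is that of the peak over the start, so a gap closed onto an existing downstream peak counts as extension. At IRS2 the downstream edge moved by 4330 bp while covered bases rose 1.09-fold. At CD248 it moved by 2833 bp with covered bases at 1.16-fold, and at BCL2 by 2258 bp with 1.21-fold.

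Promoters that also carried H3K27me3 held a larger share of most groups of changed genes than of all tested genes. H3K27me3 was called in all 6 of its libraries at 14.3% of the tested genes, and at 10 of the 21 genes that ranked higher (47.6%), 20 of the 51 wider genes (39.2%), 5 of the 16 narrower genes (31.2%) and none of the 4 genes that ranked lower. Over the 2048 genes with H3K27me3 in all 6 libraries the median width change was 0.03 and 59.5% lay above 0. Over the 10398 genes with H3K27me3 in none it was -0.006 and 46.9% lay above 0, with 20 wider and 8 narrower genes. In base pairs the shift was small beside the spread of libraries: the H3K27me3 class had median widths of 1606.5, 1676 and 1433 bp with DMSO and 1709.5, 1681.5 and 1421.5 bp with doxycycline, ranges that overlapped. These promoters were weak to begin with, with a median DMSO percentile of 50.5 against 77.8 in the class without H3K27me3, and the part of this starting level in the counts was not tested. The H3K27me3 libraries were unlike, with median peak widths of 571, 410 and 469 bp in DMSO 2, DMSO 3 and doxycycline 3. In DMSO 1, doxycycline 1 and doxycycline 2 they were 1898, 1926 and 1990 bp. The part of this difference in the H3K27me3 classes was not tested.

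**Figure D5:**
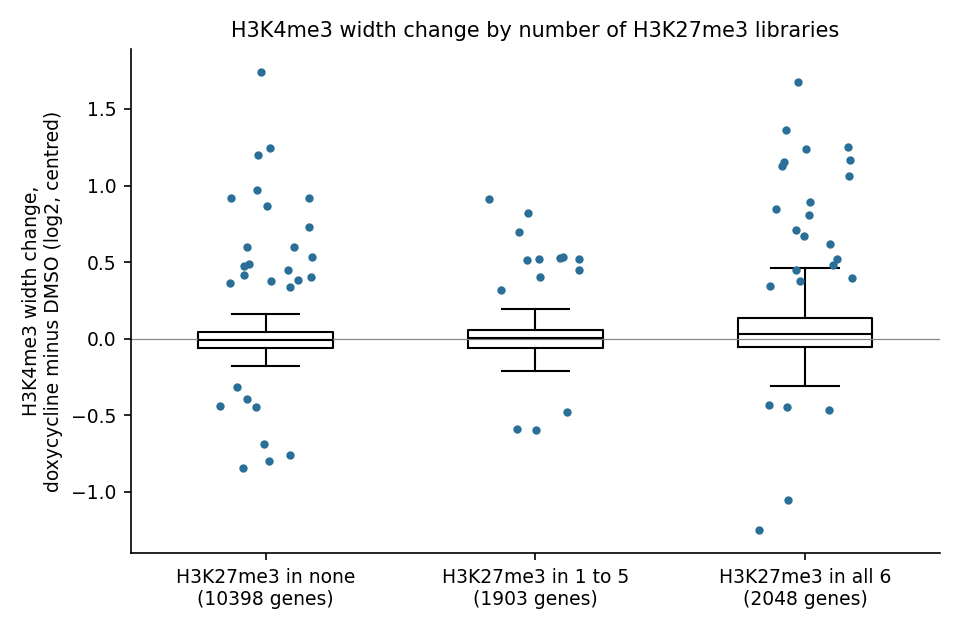
Change in H3K4me3 width (vertical axis, log2, library-centred, doxycycline minus DMSO) for tested genes grouped by the number of H3K27me3 libraries with a peak at the start site; boxes give the quartiles and median, whiskers the 5th and 95th percentiles, and blue points the genes called by width. The boxes overlap almost fully, with medians of -0.006, 0.003 and 0.03, and 25 of the 67 called genes lie in the class marked in all 6.

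Of the 13 lists chosen for this tumour and this knockdown, none had a member that passed the rank test without the block. By width 1 member each of the NF-kB and immediate early genes (EGR1), the Polycomb targets (HOXD10) and the neuronal genes passed, each wider, 1 of 20, 1 of 14 and 1 of 22 tested members beside 0.355% of all tested genes. For the adrenergic identity genes that define the sympathetic lineage, 18 of 18 were tested, 3 had a rank change above 0 and the median was -0.17 by rank and 0.04 by width, with values of -0.36 for ISL1 and 0.26 for DBH on the rank scale. By H3K27me3 class, 35.0% to 43.2% of all tested genes had a rank change above 0. The replicate block called ISL1 lower (adjusted p = 0.023) and INSM1 higher (0.041 in limma, change 0.24) by rank, and SLC18A1 narrower. With the block, 1.59% of all tested genes were lower by rank, 1.3% higher by rank and 0.153% narrower. Mesenchymal state genes gave medians of -0.02 by rank and 0.02 by width over 16 tested members.

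Of the Polycomb developmental targets 19 of 29 had a peak in any library and 14 were tested. Their median width change was 0.34, with 12 of 14 above 0, beside the -0.002 of all tested genes. HOXD10 passed, through the joining of neighbouring peaks described for it, and LHX2 (0.57 ± 0.14, limma adjusted p = 0.19), FOXA1 (0.54 ± 0.27, 0.5 in limma) and GSC (0.42 ± 0.16, 0.35 in limma) did not. OLIG2, of the same list, had a peak in 1 DMSO library and 3 doxycycline libraries, and NKX2-5 in none and 2. Among all genes, 18 went from 1 DMSO to 3 doxycycline libraries and 20 from 3 to 1. From none to 2 libraries went 28 genes, and 40 from 2 to none. Neuronal differentiation genes gave medians of 0.03 by rank and 0.05 by width over 22 tested members. By rank 14 were above 0, beside 35.0% to 43.2% of all tested genes by H3K27me3 class.

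Cell cycle genes had 1 of 21 members above 0 by rank with a median of -0.08, and MYC targets 6 of 26 with a median of -0.08, against -0.04 over all genes. Of all tested genes, 35.0% to 43.2% were above 0, by H3K27me3 class. No member of either list passed without the block. Oxidative phosphorylation (-0.02 by rank over 25), hypoxia response (-0.07 over 21), the H3K4 methyltransferases and demethylases (-0.05 over 18), the RUNX1T1 family with its corepressor partners (-0.04 over 15) and the MYC network (0.03 over 12) had no member called by rank or by width. The replicate block called 1 member each of the mesenchymal (NOTCH2), MYC target (NCL), oxidative phosphorylation (ATP5PO), cell cycle (MCM3) and hypoxia (PFKFB4) lists lower by rank, and FOS of the NF-kB and immediate early genes higher, a list with medians of 0.03 by rank and 0.05 by width over 20 tested members. With the block, 1.59% of all tested genes were lower by rank and 1.3% higher.

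RUNX1T1 itself, the target of the hairpin, had 5 or 6 separate H3K4me3 peaks in each library, at several annotated start sites. Its percentile was 77.7, 74.6 and 70.6 with DMSO and 78.4, 80.1 and 62.1 with doxycycline, and the sum of these peaks 10479, 9779 and 7712 bp against 10664, 12303 and 8344 bp (0.19 ± 0.12, limma adjusted p = 0.58). A hairpin acts on the mRNA, so the promoter mark does not measure the knockdown. HAND2, a factor of the sympathetic lineage, had a summed width of 24339, 24262 and 19290 bp with DMSO and 23915, 23939 and 15465 bp with doxycycline (-0.09 ± 0.13, limma adjusted p = 0.83). MAX, GSPT1, CLNS1A and NAP1L1 did not pass by either measure, and ABCA10 had no peak. MYCN, which is amplified in these cells, had peaks in DMSO replicates 1 and 2 and in doxycycline replicate 3 only, each at the very top of its list (percentiles from 99.99 to 100) and 860, 5496 and 866 bp wide, so it was not tested.

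Other marks at the same promoters moved with H3K4me3 at some of these genes. By the same rank test, 25 promoters were higher (0.195% of 12827) and 163 lower (1.27%) in H3K27ac. Of the 21 genes that ranked higher in H3K4me3, 3 were also higher in H3K27ac: SMTNL2 (0.45 ± 0.12, limma adjusted p = 0.041), CIART (0.48 ± 0.12, 0.032 in limma) and ZFR2 (0.58 ± 0.15, 0.032 in limma). EFNA4 and EFNA4-EFNA3, which ranked lower, were lower in H3K27ac too (-0.54 ± 0.13 at EFNA4, limma adjusted p = 0.025), and OR1F1 had an H3K27ac peak in 3 DMSO and in none of the doxycycline libraries. Among wider genes PRSS3 was higher in H3K27ac (0.67 ± 0.12, limma adjusted p = 0.00099), and among narrower genes KCNAB1 was lower (-0.89 ± 0.13, 0.00016 in limma).

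HES4, ISG15, HOXD10 and MSX1 went from no H3K27ac peak in 3 DMSO libraries to a peak in 3 doxycycline libraries, so that they have no rank change. HES4 and ISG15 lie at 1 locus and are not independent of each other. The share of all genes that switched in H3K27ac in this way, or as OR1F1 did, is not given here. The median H3K27ac change was 0.14 over the 14 H3K4me3 rank risers it could be computed for, -0.15 over 12 narrower promoters and -0.04 over all. H3K4me2 peaks were present in all 6 libraries at each of the 21 rank risers and 51 wider promoters, with median changes of -0.01 and 0.02, and only PLXNA4 was called, lower, among them (-0.99 ± 0.17, limma adjusted p = 3.4e-05).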

How the data were processed

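ChIP-seq peak lists of KELLY cells were analysed. Per the paper's methods, the authors aligned reads to hg38 with Bowtie2, kept mapping quality 30 or more and called peaks per replicate against input with MACS2. Per the file headers, H3K4me3 and H3K4me2 were called in narrow mode at p 1e-5 (MACS2 2.1.1.20160309, single-end tags of 101 bp) and the other marks in broad mode at q 0.05 (18 lists). The methods give a q cut-off and paired reads. The input used for replicate 3 has the read totals of the replicate 1 input in both treatments. The deposited lists hold, for each peak, the pileup signal at its summit or over its width, −log10 p and −log10 q values and the ratio of fold enrichment, scaled by MACS2 to the smaller of ChIP and input.

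Peaks on chromosomes 1 to 22 and X were joined to GENCODE 44 protein-coding start sites (1.0 kb either side; bedtools 2.31.1 gave the same count for 1 library, 14752 genes). Width was log2 and library-centred; rank was the normal score of the within-list percentile of the highest pileup. Tests used limma 3.58.1 (R 4.3.3, empirical Bayes with trend) over the 14349 genes with a peak in all 6 libraries, adjusted by Benjamini-Hochberg, with 0.05 as the threshold; counts of genes per library were compared by an exact permutation test. Tested on simulated data, with 200 of 14349 genes changed by 1, 89.5% were recovered by rank (4.79% of calls false) and 92.5% by width (4.15% false). The simulated libraries were drawn independently, without the pairing by replicate number. Median called changes here were smaller than 1, at 0.61 and -0.70 by rank and 0.60 and -0.53 by width. The simulated rates therefore do not cover paired libraries or smaller changes. Tables were handled in Python 3.11.15.

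Replicate numbers come from the labels. Deviations from the group mean correlated between same-numbered libraries at 0.312 to 0.462 by rank and 0.266 to 0.452 by width, against at most 0.12 and 0.218 for other pairs, so the numbers pair the libraries; blocked values are given where they change a call or count.

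Named genes are, for rank and width in each direction, up to 10 with the largest change among called genes without overlap and with 3 differences of the same sign, filled by smallest p where fewer passed; for presence, up to 10 with the highest weakest −log10 q; 8 genes of the study; and the extremes of each list. Other called genes named, and the interferon, cholesterol and clock lists, were chosen after their values were seen. The comparison, genes and lists were all chosen with earlier results of these data known. Inputs were not used, having no peaks. Promoter sequences are from RefSeq (15321 genes matched). Some genes of these lists are not reported here.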

Additional observations from a re-analysis of the deposited data

How the results depend on the processing

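The count of promoters changed by rank (25) moved with the scale: 202 when ranks were taken among tested genes only, 113 with lists cut to equal length, 285 on centred log2 pileup (233 of them higher), 919 on that scale with the replicate block, 414 with the replicate block on ranks, and 12 without a variance trend. Leaving out libraries gave 3 to 149. The width count (67) was 21 without centring and 44 for the widest single peak, and 0 to 134 with libraries left out. The number of genes switching between 0 and 3 libraries (26) was 25 to 38 under other windows, cut-offs and list lengths, and 34 to 83 with libraries left out. The difference in marked genes per library (-30.3) ranged from -96.5 to 66.7, with a sign change without replicate 3 (0.5), without DMSO replicate 1 (8.5) and without doxycycline replicate 3 (66.7). The H3K27ac count (188) became 551 with the replicate block. Single genes reversed in 3 cases, SLC25A48 (-0.13) and P2RX5 (0.038) with canonical starts and P2RX5 (0.047) for the widest peak; of the other values of named genes under alternatives, 597 kept direction and side of the threshold, 187 fell short of it and 45 passed it. Of 126 values of list members 24 changed sign in some alternative, none of the 8 called. The cause of these moves was not tested, except that leaving out libraries leaves fewer samples. The log2 pileup with block, the covered bases and the 3 later lists were added after seeing the data. Depth differed between treatments in every library, so weak peaks near the caller's threshold, the switching genes above all, are the least secure, and a peak that was not called was not detectable at this depth.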

Other observations

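Some of the largest rank changes reached the threshold only with the replicate block. TP73, the p53 family member, moved by 1.18 ± 0.25 (percentile means 63.7 with DMSO and 95.5 with doxycycline, limma adjusted p = 0.016 with the block and 0.31 without). NTN3, a netrin, moved by 0.74 (0.018 with the block in limma) and CDK18, a cyclin-dependent kinase, by 0.70 (0.0069 in limma). The largest blocked decreases were at TMEM30B (-0.89), TSKS (-0.88), CATSPERZ (-0.79, percentile means 75.5 and 50.4), H3-3B (-0.76), CFAP47 (-0.73) and MRO (-0.71). CATSPERZ, TSKS and MRO are known mainly from testis or gonad.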
